A study of Homo sapiens with 10 samples.

Results

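HEK293FT cells given the activator dCas9-VP64 together with the guide labelled P4P6 were compared with cells given the activator and no guide, a control labelled CasVP. Each group has 2 libraries, so 4 of the 10 libraries of the series enter the comparison directly. Its features are the rows of the deposited matrix that carry a gene name and reach a mean of at least 1 FPKM (fragments per kilobase of transcript, scaled to the size of the library) over the 10 libraries: 11574 of 20246, of which 11570 are endogenous and 4 are transcripts of the introduced constructs. HEK293FT is an easily transfected human embryonic kidney line, and all groups carried a Gaussia and a Cypridina luciferase reporter that had been inserted into the genome by lentivirus. Per well, 125000 cells received 59 ng of activator plasmid and 679.4 ng of carrier plasmid with 2.25 uL of Lipofectamine, and the P4P6 wells also 11.6 ng of a guide plasmid driven by the U6 promoter. RNA was collected 3 days after transfection. The other libraries, 2 each with the guides labelled sgRNA, INT and TOP1, all directed at the Gaussia reporter like P4P6, served as a second reference. Transfection was transient, and the share of cells that took up plasmid is not given in the sources used here. Nor do these sources state the insert of the P4P6 guide or whether replicates were separate cultures, so p-values here describe the spread between these samples, which may be technical.

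A dCas9 protein has lost its nuclease activity but still binds DNA where its guide RNA matches. VP64, made of repeats of a viral activation domain, recruits the transcription machinery, so a guide placed upstream of a promoter raises transcription of that gene. CRISPR Display refers to guides that carry an added RNA sequence, and the name P4P6 is shared with a compactly folded domain of a group I intron ribozyme. Such a guide can alter a target's transcription only where the complex assembles, and genes away from its target serve to show what else differs between the cells.

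The construct transcripts were read first, since they check the labels. The P4P6 guide's own transcript was listed at 0.440 FPKM in P4P6 replicate 0 and at 0.761 in replicate 1, and at 0 in the other 8 libraries. Replicates are named by the index in the column names, which is not matched to the replicate numbers of the labels. The transcript named sgRNA was at 108.6 FPKM in P4P6 replicate 0 and at 233 in sgRNA replicate 0. It was listed at 0 in P4P6 replicate 1 and in the remaining libraries, sgRNA replicate 1 among them. Both P4P6 libraries therefore held their own guide, while the signal of the sgRNA feature was in only 1 of them. The INT guide's transcript was at 1.38 FPKM in INT replicate 0 and at 0 in INT replicate 1, so not every guide library showed its own guide. U6 transcripts are short and lack a poly(A) tail, so their level in such libraries is not a measure of guide abundance.

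The targeted reporter was higher with the P4P6 guide. Gaussia luciferase stood at 23.8 and 22.7 FPKM in the CasVP libraries, a mean of 23.3 ± 0.759 (SD, n = 2), and at 189 and 163 FPKM in P4P6 replicates 0 and 1, a mean of 176 ± 18.5 (SD, n = 2). The groups did not overlap, and the ratio of the means was 7.55. Gaussia luciferase rose by 2.86 on the log2(FPKM + 1) scale (SE 0.07, 95% interval 2.70 to 3.02, limma adjusted p = 2.17e-08), and by 2.97 and 2.75 for replicates 0 and 1 taken alone. An exact permutation test of 2 libraries against 2 cannot give a p below 0.33. Among the other 6 guide libraries the same transcript ranged from 257 FPKM through a median of 361 to 857, so both P4P6 libraries lay below every other library with a guide. These guides also differed among themselves, with 257 and 273 FPKM for TOP1, 356 and 366 for INT and 787 and 857 for sgRNA. P4P6 was thus nearest to TOP1 and furthest from sgRNA, which weighs on the mean of the 3. P4P6 was lower than the mean of the 3 other guides by 1.29 (log2 difference -1.29, SE 0.06, limma adjusted p = 8.37e-06; two-sided exact permutation p = 0.0714 over 28 splits, of which the smallest possible is 0.0357). Fewer cells with an active reporter and less reporter RNA per cell cannot be told apart in these bulk samples.

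The activator's own transcript varied between groups as well. The dCas9-VP64 transcript was at 14.8 and 14.6 FPKM with CasVP and at 17.1 and 20.1 in P4P6 replicates 0 and 1. Its P4P6 libraries lay above both CasVP libraries, with a log2 difference of 0.32 (SE 0.07) that did not pass (limma adjusted p = 0.0750). The other guide libraries held 16.1 to 25.9 FPKM of the dCas9-VP64 transcript with a median of 23.7, and P4P6 was lower than their mean (log2 difference -0.21, limma adjusted p = 0.0320). It overlapped them, since the TOP1 libraries were at 16.1 and 17.1 FPKM and those of INT and sgRNA at 23.4 to 25.9. The part of activator level in the reporter values was not tested. Cypridina luciferase, which no guide targeted, was at 1.40 and 1.15 FPKM with CasVP and at 1.54 and 1.71 with P4P6, a difference of 0.21 (SE 0.12, limma adjusted p = 0.315) with an interval from -0.05 to 0.47.

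**Figure D1:**
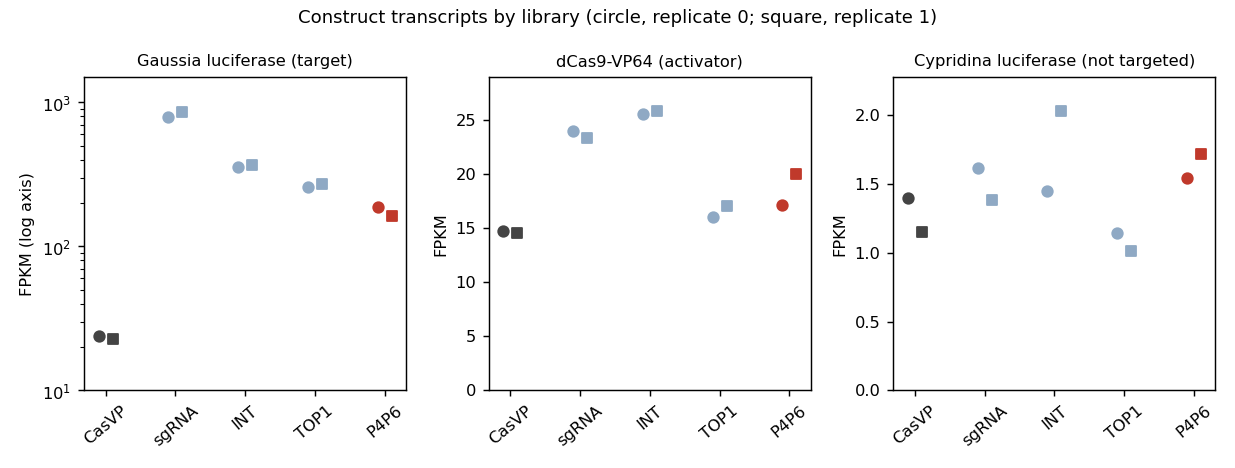
FPKM of the Gaussia luciferase (log axis), dCas9-VP64 and Cypridina luciferase transcripts in each of the 10 libraries by group, with circles for replicate 0 and squares for replicate 1. Gaussia luciferase in the P4P6 libraries (189 and 163 FPKM) sits above CasVP (23.8 and 22.7) and below all other guide libraries (257 to 857).

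Of the 11574 features, the Gaussia reporter alone passed an adjusted p of 0.05 in P4P6 against CasVP, 0.00864% of the features. That count depends on the model: with a block for the replicate index, 600 of the 11574 passed, 223 higher and 377 lower. The values that follow are from the fit without this block. At an unadjusted p of 0.05, 2568 features (22.2%) differed, 9.32% of all features higher and 12.9% lower, and 624 (5.39%) had an adjusted p under 0.1, 2.31% higher and 3.08% lower. The P4P6 libraries were both above both CasVP libraries for 2709 features (23.4%) and both below for 3258 (28.1%). Differences were small: 12 features were past 1.5-fold higher in both P4P6 libraries, and 1 was past 1.5-fold lower in both. The endogenous genes described next did not pass in the fit without the block, and their values are given as measurements.

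The smallest p-values among endogenous genes belonged to SAFB, ATXN2L and FASN. SAFB, a scaffold attachment and RNA-binding protein, was at 42.9 and 41.5 FPKM with CasVP and at 54.2 and 56.0 with P4P6. ATXN2L, a component of stress granules, was at 55.7 and 53.7 against 68.7 and 72.7. FASN, the enzyme that builds palmitate, was at 36.4 and 37.3 against 46.6 and 47.0. In each of these 3 genes both P4P6 libraries lay above both CasVP libraries and above all 6 other guide libraries. The log2 differences of SAFB, ATXN2L and FASN were 0.38, 0.37 and 0.34, each with a limma adjusted p of 0.0689. LENG8, a protein linked to messenger RNA processing, was at 41.8 and 39.0 FPKM with CasVP and at 56.7 and 58.2 with P4P6 (log2 difference 0.50, SE 0.07, limma adjusted p = 0.0714). On the low side, APOC1, a small apolipoprotein of lipid particles, was at 48.0 and 46.0 FPKM with CasVP and 36.0 and 34.7 with P4P6 (log2 difference -0.40, SE 0.06, limma adjusted p = 0.0714). C11orf10, LIN37,PSENEN (a feature that names 2 genes), CRADD and PIGH were the next by p, all lower in both P4P6 libraries, with log2 differences of -0.30, -0.25, -0.44 and -0.29. DMPK, the myotonic dystrophy kinase, was at 12.4 and 13.5 against 16.6 and 17.4 FPKM (log2 difference 0.37).

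Among endogenous genes with a mean of at least 5 FPKM, MIF had the largest difference without overlap, and its libraries varied widely. MIF, a secreted cytokine, stood at 36.0 and 52.8 FPKM with CasVP and at 101 and 81.8 with P4P6, a log2 difference of 1.04 with an SE of 0.47 (limma adjusted p = 0.229). PCSK1N, an inhibitor of a prohormone-processing protease, was at 4.49 and 6.32 against 8.80 and 12.0 FPKM, and HES4, a transcriptional repressor of the Notch-responsive HES family, at 15.8 and 17.8 against 25.7 and 29.3. For MIF and HES4 the 6 other guide libraries spanned both groups, and for PCSK1N they ran from 4.20 to 10.3 FPKM, with P4P6 replicate 1 above them. CCDC85B, NEDD4L, TMEM160, HOXA6 and PPDPF had differences between 0.47 and 0.75 and also overlapped the other guides. AGRN (agrin, a proteoglycan of the basement membrane), PKD1 (polycystin-1), TBX1 (a T-box transcription factor), FBRSL1 and ZNF703 were instead above all 6 other guide libraries, with log2 differences of 0.53, 0.51, 0.50, 0.48 and 0.60 from CasVP. AGRN, for example, was at 7.22 and 7.92 FPKM with CasVP, at 11.3 and 11.5 with P4P6, and between 6.38 and 9.91 with the other guides. TPM2, a tropomyosin of actin filaments, was at 7.07 and 6.38 against 10.7 and 11.0 FPKM (log2 difference 0.62, SE 0.10), and 1 other guide library reached 11.2.

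Among the lower genes, RECK, a membrane-anchored inhibitor of matrix metalloproteases, was at 8.24 and 9.95 FPKM with CasVP and 5.10 and 5.55 with P4P6 (log2 difference -0.67, SE 0.25, limma adjusted p = 0.164). RPS20, a small-subunit ribosomal protein, was at 1009 and 1541 against 942 and 839 FPKM, so that its difference of -0.49 rested largely on CasVP replicate 1. C15orf41, since named as a nuclease mutated in an inherited anemia, was at 9.59 and 9.78 against 7.35 and 5.84, and SLC39A11, a zinc transporter, at 8.02 and 8.21 against 6.39 and 4.94. In C15orf41 and SLC39A11 replicate 1 was the lower P4P6 library, and both libraries were below all other guides. Replicate 1 was also the lower P4P6 library for KRTAP19-1, CALCB, CENPM and CCDC53, whose P4P6 values overlapped the other guides, with log2 differences from -0.57 to -0.37. PCMTD1, FOXP2, GLYCTK and ECE2 lay between -0.41 and -0.36. RPL13AP20, a pseudogene copy of RPL13A whose reads may be shared with its parent, was at 41.4 and 41.3 against 31.7 and 32.5 FPKM.

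**Figure D2:**
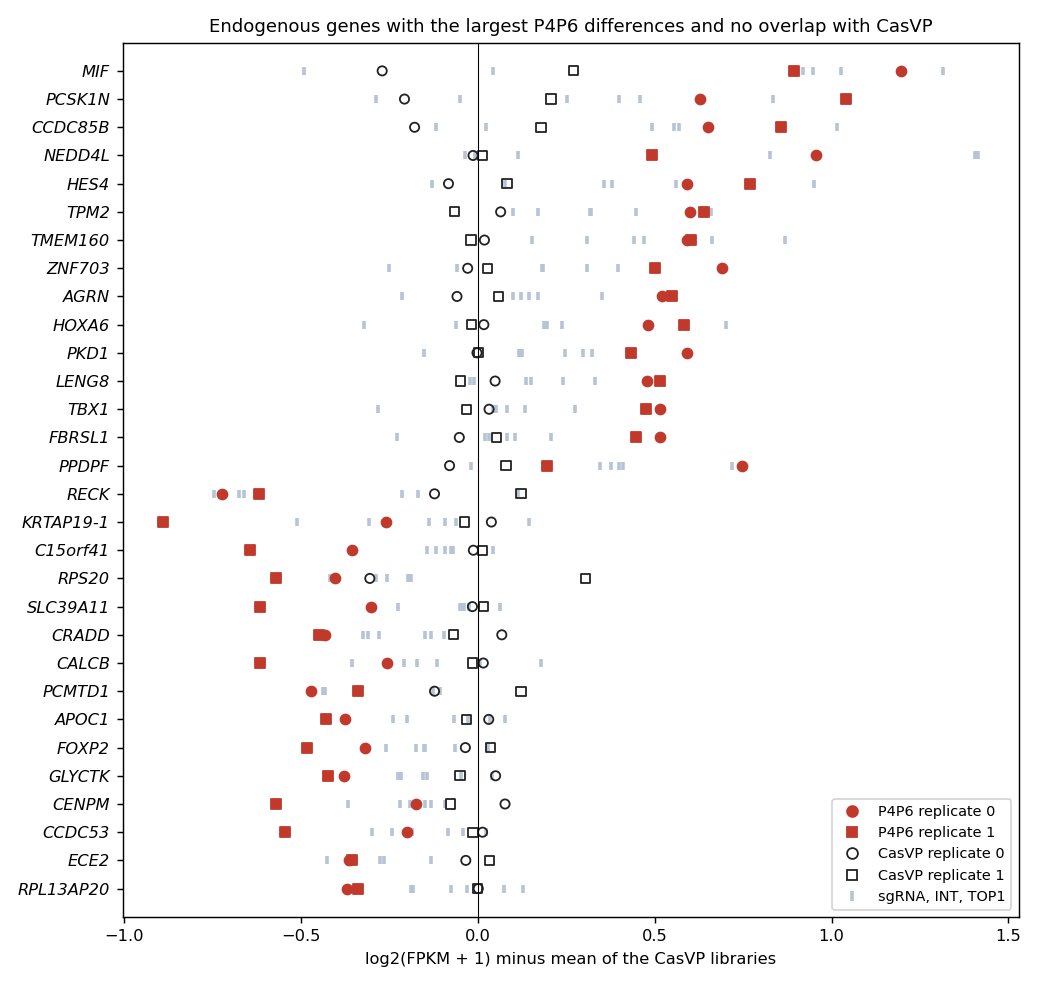
Difference of log2(FPKM + 1) from the mean of the CasVP libraries for the 15 endogenous genes each way with the largest P4P6 differences and no overlap, with filled red points for P4P6, open points for CasVP and grey bars for the 6 other guide libraries. AGRN, PKD1, LENG8, TBX1 and FBRSL1 lie to the right of every grey bar, while MIF, HES4 and NEDD4L fall among them.

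The 2 P4P6 libraries differed from each other more than the replicates of any other group. The SD of the replicate difference over all features was 0.188 on the log2 scale for P4P6 against 0.104 for CasVP and 0.136 to 0.141 for the other guides, and 72 features were more than 1.5-fold apart between the P4P6 libraries against 54 for TOP1, 22 for sgRNA, 21 for INT and 11 for CasVP. ELOVL5, an elongase of polyunsaturated fatty acids, was the most divergent: 349 FPKM in P4P6 replicate 0 and 55.5 in replicate 1. The ELOVL5 level of replicate 1 was near that of the CasVP libraries (57.4 and 56.8) and of the 6 others (57.6 to 62.6), so its mean difference of 1.28 (SE 0.59, limma adjusted p = 0.236) describes 1 library. ACTA2, a smooth muscle actin, was at 17.3 FPKM in replicate 0 and 8.93 in replicate 1, AMOT, a regulator of Hippo signaling, at 193 and 109, and FDXR, a mitochondrial ferredoxin reductase, at 18.1 and 10.1. TFRC, the transferrin receptor, went the other way with 19.3 FPKM in replicate 0 and 41.3 in replicate 1, outside the 23.2 to 28.3 of the other libraries on both sides. In every other group too, replicate 0 was the higher library for ACTA2, AMOT and FDXR and the lower one for TFRC, with smaller gaps. AMOT, for example, was at 168 and 135 FPKM in CasVP replicates 0 and 1. These divergent genes were chosen after their values were seen.

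Relative to the CasVP mean, P4P6 replicate 0 had 34 features past 1.5-fold higher and 3 lower, and replicate 1 had 30 higher and 23 lower. No feature was past 1.5-fold in opposite directions. Without P4P6 replicate 0, 764 features passed with limma, 230 higher (1.99% of those tested) and 534 lower (4.61%); without P4P6 replicate 1, 2 passed (0.0173%), the Gaussia reporter and ELOVL5. Leaving out a P4P6 library makes its partner the sole P4P6 sample, whose spread is then taken from the other groups. Relative depth, estimated from the steps of low values, was 0.694 of that of CasVP replicate 0 in P4P6 replicate 0, the lowest of the 10, and 0.797 in replicate 1. Other libraries ranged from 0.705 to 1.02, and the upper quartile of FPKM from 17.3 to 17.7. Markers typical of HEK293 cells were listed for all 10 genes sought, with summed levels of 178 to 188 FPKM in the 4 libraries, while fibroblast markers summed to 2.63 to 3.48 FPKM with COL1A2 at 0, and blood, keratinocyte, hepatocyte and muscle markers each to under 1 FPKM.

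**Figure D3:**
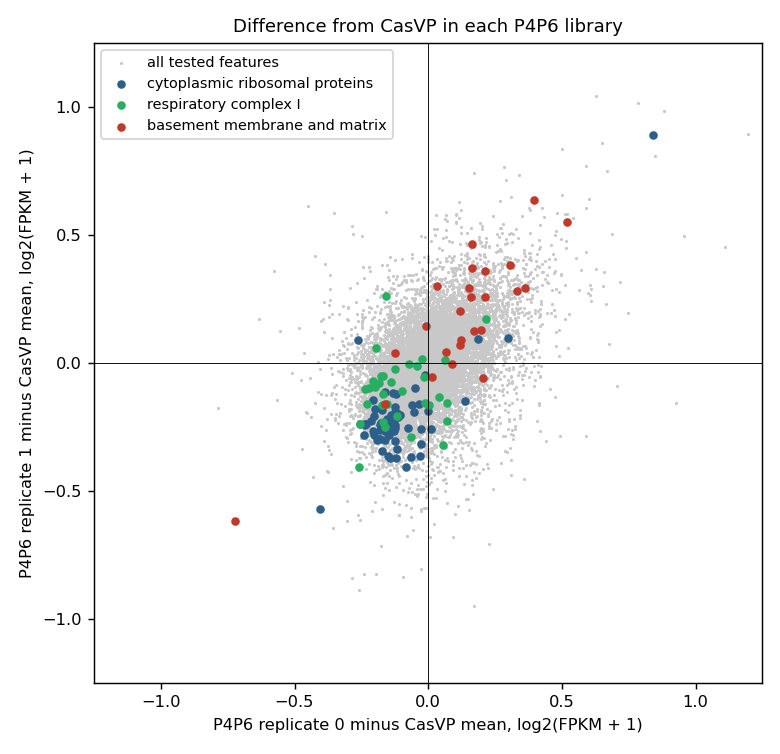
Difference of log2(FPKM + 1) from the CasVP mean in P4P6 replicate 0 (horizontal axis) and replicate 1 (vertical axis), with every tested feature in grey and 3 gene lists in color; 5 features lie outside the axes. Both axes share the CasVP mean, and most ribosomal protein genes lie in the lower left and most basement membrane genes in the upper right.

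Cytoplasmic ribosomal protein genes, which encode the protein part of the ribosome and are among the most abundant messages, were lower as a group with P4P6. Of 71 tested, 68 had an estimate below 0, against 53.9% of all features, and 61 had both P4P6 libraries below both CasVP libraries (28.1% of all features). The median log2 difference of these genes was -0.20, -0.14 in replicate 0 and -0.24 in replicate 1, beside -0.01 over all features in the mean and in each library. RPL31, a large-subunit protein, was at 3809 and 3720 FPKM with CasVP and at 3191 and 3095 with P4P6 (log2 difference -0.26, SE 0.07, limma adjusted p = 0.0880). FAU, which encodes a ubiquitin-like protein fused to ribosomal protein S30, was at 889 and 836 against 765 and 678 FPKM (log2 difference -0.26, SE 0.06, limma adjusted p = 0.0816). In both genes the P4P6 libraries lay below CasVP and below all 6 other guide libraries. None of the 71 passed against CasVP. Against the 3 other guides 61 were lower at an adjusted p under 0.05 and none higher, where 10.2% of all features were lower and 7.23% higher. Abundant features as a whole lay lower: in the highest of 5 bins by mean FPKM (40.1 and above), 54.0% lay below both CasVP libraries. Of the 2315 features in that bin, 775 were lower than the other guides and 74 higher. Summed FPKM was lower in P4P6 replicates 0 and 1 (553560 and 535760) than in the other libraries (562460 to 612550). With quantile normalization the difference of GAPDH, another abundant message, from CasVP went from -0.19 to 0.013. The part of expression level in the list counts was not tested.

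Promoters are shown for genes of the ribosomal, mitochondrial and matrix lists, whose medians lay on one side of 0 in both P4P6 libraries. Of the tested features, 7932 matched a promoter of the RefSeq table (GRCh38.p14). The ETS core CGGAAG was sought on both strands in the 250 bases before the start: 28.4% of all matched promoters held it, 60.7% of 56 cytoplasmic ribosomal protein promoters, 48.3% of 60 mitochondrial ribosomal protein promoters and 20% of 20 matrix gene promoters. The share was 63.6% of 22 for the proteasome and 42.1% of 19 for complexes II to V, but 17.9% of 28 for complex I. These lists had medians below 0. On the side above 0, it was 40% of 15 for large scaffold and motor genes and 6.67% of 15 for fatty acid synthesis genes. Whether the motif bears on the differences was not tested. The GC box GGGCGG was in 69.6% of all, 57.1% of cytoplasmic ribosomal protein and 80% of matrix gene promoters, and the NRF1 core GCATGC in 8.07% of all and 15% of mitochondrial ribosomal protein promoters. A match describes these letters and not a bound site. Below, each of the 4 genes is given with the 150 bases before its start, on the gene's own strand and with these motifs in capitals: RPL31 at chr2:101002139-101002288 (plus strand), FAU at chr11:65122135-65122284 (minus), MRPL24, a mitochondrial ribosomal protein gene, at chr1:156741089-156741238 (minus) and LAMA5, a laminin chain gene, at chr20:62367313-62367462 (minus).
RPL31: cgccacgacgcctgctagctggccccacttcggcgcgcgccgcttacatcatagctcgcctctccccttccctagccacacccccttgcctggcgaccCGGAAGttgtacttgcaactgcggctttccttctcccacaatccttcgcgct
FAU: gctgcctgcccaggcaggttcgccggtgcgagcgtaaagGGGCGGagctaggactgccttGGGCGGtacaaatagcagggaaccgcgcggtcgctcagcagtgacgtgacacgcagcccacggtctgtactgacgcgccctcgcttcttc
MRPL24: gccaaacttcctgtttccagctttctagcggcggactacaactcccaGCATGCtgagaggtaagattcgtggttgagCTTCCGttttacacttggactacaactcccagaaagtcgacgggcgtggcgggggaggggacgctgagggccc
LAMA5: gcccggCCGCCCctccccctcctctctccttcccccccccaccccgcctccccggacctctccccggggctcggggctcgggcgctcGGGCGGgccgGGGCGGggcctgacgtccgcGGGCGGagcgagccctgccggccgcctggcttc
RPL31 has 1 ETS core, FAU 2 GC boxes, MRPL24 an ETS core in reverse orientation and an NRF1 core, and LAMA5 4 GC boxes, 1 of them in reverse orientation. The 150 bases of LAMA5 are 84% G and C and those of RPL31 64%.

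Other genes of protein synthesis lay in the same direction with smaller medians. Of 68 mitochondrial ribosomal protein genes, whose products translate the messages of the mitochondrial genome, 59 were below 0 (53.9% of all features) and 42 had both P4P6 libraries below both CasVP libraries (28.1% of all features), with a median log2 difference of -0.12 (-0.09 in replicate 0 and -0.13 in replicate 1). MRPL24 was at 95.1 and 87.9 FPKM with CasVP and 81.2 and 63.7 with P4P6, and MRPS23 at 87.3 and 91.0 against 74.5 and 70.9, with no overlap in either. Against the other guides, 24 of the 68 were lower, where 10.2% of all features were, and none higher. The median level of the 68 genes was 55.1 FPKM. In the highest of 5 bins by mean FPKM, 775 of 2315 features were lower than the other guides, and 54.0% lay below both CasVP libraries. Of 30 translation factors, at a median of 183 FPKM, 17 were below both CasVP libraries and 5 above both, against 28.1% and 23.4% of all features. EIF6, which keeps the ribosomal subunits apart, was at 174 and 164 FPKM with CasVP and at 150 and 129 with P4P6 (log2 difference -0.28), and EEF1B2, an exchange factor for the elongation factor, was at 961 and 927 against 861 and 763. EIF3F, a subunit of the initiation factor eIF3, lay on the other side with 78.3 and 78.2 against 93.2 and 93.2 FPKM. Of 19 cytosolic aminoacyl-tRNA synthetases, which charge transfer RNAs, 18 were below 0, among them SARS at 314 and 305 against 276 and 261.

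Most nuclear-encoded genes of the respiratory chain had estimates below 0 with P4P6, and none passed against CasVP. Complex I, which oxidizes NADH, had 31 of 34 subunit genes below 0 (53.9% of all features) and 20 with both P4P6 libraries below both CasVP libraries (28.1% of all features; median log2 difference -0.11, -0.15 in replicate 0 and -0.11 in replicate 1). NDUFB2, an accessory subunit, was at 215 and 194 FPKM with CasVP, at 171 and 154 with P4P6 and between 178 and 218 with the other guides, a difference of -0.33 from CasVP (SE 0.06, limma adjusted p = 0.0750). Complexes II to V had 33 of 39 genes below 0 and 28 below both CasVP libraries, with a median of -0.15. COX6A1, a subunit of cytochrome c oxidase, was at 720 and 723 against 614 and 587 FPKM, and ATP5F1, a subunit of ATP synthase, at 186 and 181 against 156 and 159. Neither gene overlapped between P4P6 and CasVP. Against the other guides, 17 complex I genes and 23 genes of complexes II to V were lower, where 10.2% of all features were, and none higher. The median levels of the lists were 98.2 and 179 FPKM. In the highest of 5 bins by mean FPKM, 54.0% of features lay below both CasVP libraries and 775 of 2315 were lower than the other guides.

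Of 28 proteasome genes, which encode the complex that degrades ubiquitin-tagged proteins, 26 were below 0 and 23 below both CasVP libraries, against 53.9% and 28.1% of all features (median log2 difference -0.15, with -0.16 in replicate 0 and -0.12 in replicate 1). PSMD4, a ubiquitin receptor of the regulatory particle, was at 182 and 177 FPKM with CasVP and at 157 and 142 with P4P6. PSMA5, a subunit of the core, was at 190 and 201 against 164 and 173. Both genes were also below all 6 other guide libraries, and 17 of the 28 were lower than the other guides by the limma test (10.2% of all features). The median level of the 28 was 104 FPKM. In the highest of 5 bins by mean FPKM, 54.0% of features lay below both CasVP libraries and 775 of 2315 were lower than the other guides. The Sm and LSm proteins of the splicing particles had 14 of 19 genes below 0 with a median of -0.09, with SNRPC at 255 and 251 against 221 and 205 FPKM. SR and hnRNP proteins, which select splice sites and bind nascent RNA, lay near the background: 7 of 24 lay above and 8 below both CasVP libraries, against 23.4% and 28.1% of all features, with a median of -0.02.

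Genes of the basement membrane and extracellular matrix lay on the higher side. Of 25 tested, 21 were above 0, against 46.1% of all features, and 17 had both P4P6 libraries above both CasVP libraries (23.4% of all features). Their median log2 difference was 0.16, 0.16 in replicate 0 and 0.20 in replicate 1. LAMA5, a laminin chain of epithelial basement membranes, was at 3.41 and 3.94 FPKM with CasVP, at 5.14 and 6.25 with P4P6, and between 3.30 and 4.38 with the other guides. COL18A1, the collagen from which endostatin is cut, was at 12.3 and 12.8 against 15.7 and 16.6, and AGRN was described above. RECK, in the same list, was the lowest member at -0.67. None passed against CasVP, while 8 were higher than the other guides by limma (7.23% of all features) and none lower, LAMA5 among them (log2 difference 0.49, SE 0.08, limma adjusted p = 0.0137). The median of the list against the other guides was 0.14, and -0.015 once trends with transcript length and GC content were removed. Its median transcript length was 6438 bases, against 2928 over all features.

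Genes for very large scaffold and motor proteins, with a median transcript length of 12890 bases against 2928 over all features, had the highest median difference of the 28 gene lists. Of 24 tested, 22 were above 0 and 21 had both P4P6 libraries above both CasVP libraries, against 46.1% and 23.4% of all features, with a median log2 difference of 0.22, 0.18 in replicate 0 and 0.23 in replicate 1. PLEC1, the gene of plectin, which links cytoskeletal filaments, was at 3.59 and 3.80 FPKM with CasVP and 5.23 and 5.10 with P4P6. SRRM2, a large protein of nuclear speckles, was at 96.3 and 91.2 against 115 and 120, and LRP1, an endocytic receptor, at 5.43 and 5.60 against 6.76 and 7.80. All 3 were without overlap. Against the other guides 17 of the 24 were higher, where 7.23% of all features were, and none lower. Among the higher ones were FASN, PLEC1 and SRRM2 (log2 differences of 0.41, 0.38 and 0.34). FASN is an enzyme with a long transcript, and is counted both here and in the fatty acid synthesis list. Actin cytoskeleton genes were less uniform, with 10 of 25 above and 5 below both CasVP libraries, against 23.4% and 28.1% of all features; FLNA, which crosslinks actin filaments, was at 54.3 and 55.2 against 61.5 and 68.3 FPKM.

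**Figure D4:**
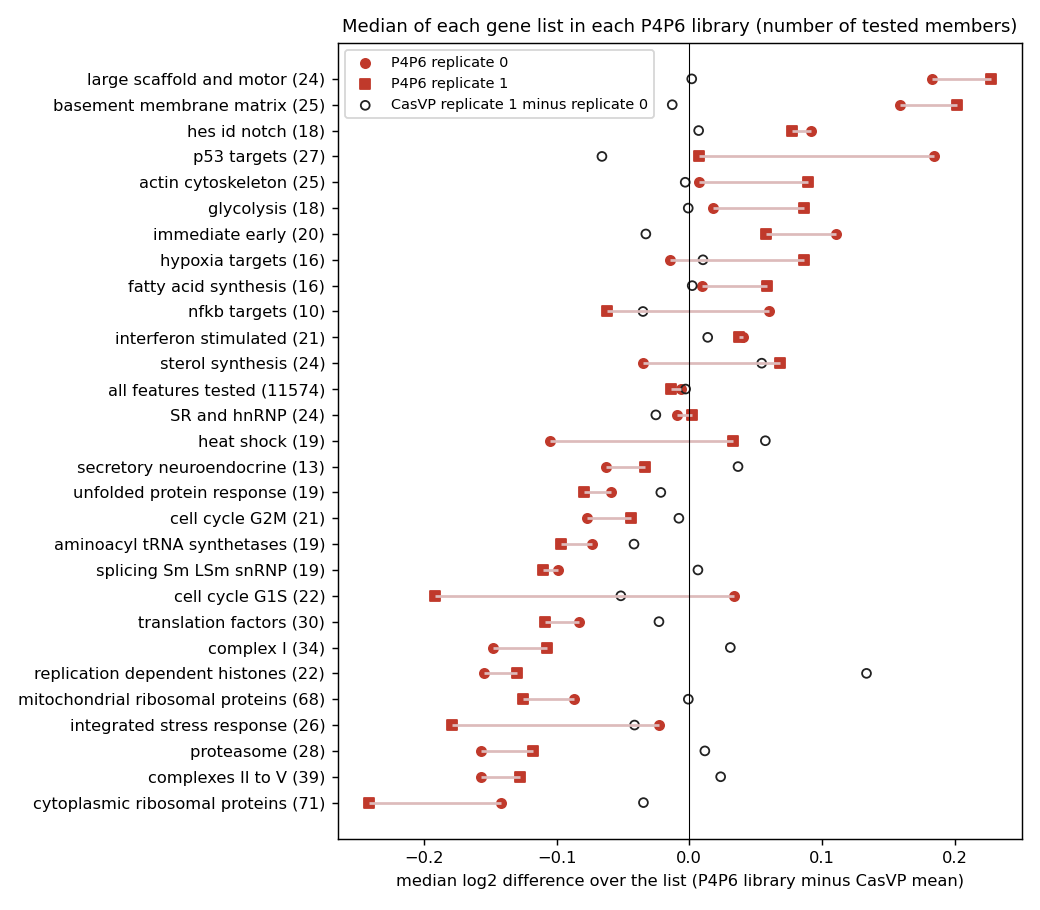
Median log2 difference from the CasVP mean for each gene list in P4P6 replicate 0 (red circles) and replicate 1 (red squares), with the difference between the CasVP replicates as open circles and the number of tested members in brackets. Cytoplasmic ribosomal proteins (-0.14 and -0.24) lie left of 0 and large scaffold and motor proteins (0.18 and 0.23) right of it in both libraries, and the p53 list (0.18 and 0.01) and the G1/S list (0.03 and -0.19) differ between the libraries.

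The HES, ID and Notch list holds receptors and ligands of Notch signaling, which passes between touching cells, its HES and HEY target repressors, and the ID repressors of differentiation. Of 18 genes, 10 were above and 4 below both CasVP libraries, against 23.4% and 28.1% of all features, with a median of 0.09. The median GC content of their transcripts was 58.2%, against 48.8% over all features. In the highest of 5 bins by GC (58.6% and above), 44.1% of features lay above both CasVP libraries. With trends in transcript length and GC content removed, the median of the list was 0.04. The Notch ligand JAG2 was at 7.79 and 7.55 FPKM with CasVP and at 10.5 and 9.99 with P4P6. The receptor NOTCH1 was at 2.44 and 2.12 against 3.66 and 2.69. Both were without overlap, and neither passed. HES4, at a difference of 0.68, was the highest of the list, whereas ID2, chosen after its values were seen, was at 223 and 224 FPKM against 204 and 189. Against the other guides 3 of the 18 were higher, where 7.23% of all features were, and none lower. JAG2 was among the higher ones (log2 difference 0.37, limma adjusted p = 0.0206).

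Several lists separated the P4P6 libraries from each other. Targets of p53, the transcription factor activated by DNA damage, had a median of 0.18 in replicate 0 and of 0.01 in replicate 1, and 6 of 27 had both libraries above both CasVP libraries, near the 23.4% of all features. PHLDA3, an inhibitor of AKT signaling, was at 11.9 and 10.8 FPKM with CasVP and at 18.7 and 12.0 in P4P6 replicates 0 and 1, and BTG2, an antiproliferative gene, at 10.1 and 9.53 against 13.4 and 10.0. In both, replicate 0 was the high library, as it was in every other group. Every other guide library also lay above CasVP in both genes (PHLDA3 13.3 to 18.9 FPKM, BTG2 11.3 to 16.3). Of the 27, 21 had a mean estimate above 0 and 6 below. G1/S genes, which prepare DNA replication, had medians of 0.03 in replicate 0 and -0.19 in replicate 1. Of 22 tested, 2 lay above and 9 below both CasVP libraries, against 23.4% and 28.1% of all features. CDT1, a licensing factor, was at 43.2 and 42.5 against 53.6 and 45.0 with replicate 0 the high library. Not all members separated the libraries. MCM6, a helicase subunit, was low in both, at 84.5 and 85.4 against 74.6 and 75.4. PCNA, the sliding clamp, was also low in both, at 436 and 426 against 394 and 370. Genes of the integrated stress response, in which ATF4 drives amino acid supply, had medians of -0.02 and -0.18. ASNS, asparagine synthetase, was at 409 and 398 FPKM with CasVP and 367 and 306 with P4P6, and TRIB3, a pseudokinase, at 56.2 and 50.9 against 53.2 and 37.2. Replicate 1 was the low library in both genes, and for ASNS in every other group too. INHBE was at 10.3 and 12.3 with CasVP, at 8.89 and 9.01 with P4P6, and lower still, at 6.24 to 8.23, with the other guides.

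Fatty acid synthesis genes were led by FASN and by MLXIPL, a glucose-responsive transcription factor of lipogenesis, which was at 5.03 and 4.99 FPKM with CasVP and 6.04 and 6.67 with P4P6. Of 16 genes, 6 lay above and 2 below both CasVP libraries, against 23.4% and 28.1% of all features, with a median of 0.06; ELOVL5, in the same list, was described above. Immediate early genes, the first to respond to stimuli, had 8 of 20 above both CasVP libraries and 1 below, with JUND at 16.6 and 20.9 against 22.6 and 29.3 FPKM. Replication-dependent histone genes, most of whose messages end in a stem-loop and are poorly captured by poly(A) selection, had a median difference of -0.12 in P4P6 and differed by 0.13 between the CasVP replicates themselves. Sterol synthesis, heat shock, unfolded protein response, hypoxia, neuroendocrine, interferon, NF-kappaB and G2/M lists had medians between -0.06 and 0.06, and the glycolysis list one of 0.07. In the interferon list, 7 of 21 genes lay above and 4 below both CasVP libraries, against 23.4% and 28.1% of all features. Of the 21, 10 had estimates above 0 and 11 below. Its highest member, IFI27, was at 0.795 and 2.03 FPKM with CasVP and at 3.20 and 3.09 with P4P6. STAT2 was at 7.73 and 7.74 against 9.19 and 9.83.

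Set against the 3 other guides, P4P6 differed at 2013 features with limma (17.4% of those tested), 837 higher and 1176 lower, a contrast that uses no CasVP mean. Both P4P6 libraries lay above all 6 other guide libraries for 12.6% of features and below all 6 for 13.9%. The differences were small, with a median absolute log2 value of 0.24 among the higher and 0.19 among the lower. AFF1, a scaffold of the super elongation complex, was the highest: 14.1 and 14.9 FPKM with P4P6 against 6.42, 6.82 and 7.95 as the lowest, median and highest of the other guides (log2 difference 0.96, SE 0.23, limma adjusted p = 0.0238). Its CasVP libraries stood at 18.6 and 7.29 FPKM, so AFF1 was as high in CasVP replicate 0 as in P4P6. IFI27 (0.85), AMH, the anti-Müllerian hormone gene (0.52), ZNF579 (0.52), RNF208 (0.51), KREMEN2, a receptor for the Wnt inhibitor Dickkopf (0.50), LAMA5 (0.49) and DOT1L, a histone H3 methyltransferase (0.49), were the next highest by log2 difference. DOT1L was at 13.5 and 14.4 FPKM with P4P6, at 9.86 and 10.8 with CasVP and at 8.06 to 10.9 with the other guides, so P4P6 lay above all. FASN differed by 0.41 (SE 0.04, limma adjusted p = 0.0039), with 32.0, 34.2 and 38.7 FPKM as the lowest, median and highest of the other guides. Lower than the other guides were RBKS, a ribokinase (-0.53), C9orf46 (-0.47), NMU, a neuropeptide (-0.46), ADCYAP1R1, the receptor of the peptide PACAP (-0.45), LGALS1, a galectin (-0.44), C19orf38 (-0.43), C15orf41 (-0.42) and C9orf9 (-0.42). RBKS was at 3.40 and 1.64 FPKM with P4P6, at 3.80 and 3.62 with CasVP and at 3.47 to 4.50 with the other guides, so that P4P6 replicate 1 stood lowest.

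These calls were sensitive to the model. With weights for library quality 2 remained, the Gaussia reporter and FASN (log2 difference 0.41, limma adjusted p = 0.0357), and with quantile normalization 905 were called, 602 higher and 303 lower, so that the balance turned from lower to higher. Without P4P6 replicate 1 there were 265, and without sgRNA replicate 0 there were 742. After trends with transcript length and GC content were removed from each library, none was called, although 2243 had an unadjusted p under 0.05 with limma; the reporter has no annotated length and is not in that fit.

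GC content and length of the transcripts moved with the P4P6 differences. Over 10996 features with both values, the Spearman correlation of the P4P6 difference from CasVP was 0.39 with GC content (0.45 for replicate 0 and 0.24 for replicate 1) and 0.26 with length (0.17 and 0.26). It was -0.32 with mean FPKM. Between the CasVP replicates the corresponding values were -0.07 and -0.04 for GC and length. Other libraries held such trends too: the deviation of a library from the mean of all 10 correlated with GC at 0.53 and 0.26 for P4P6 replicates 0 and 1, at -0.30 and -0.42 for TOP1 and at -0.16 and -0.10 for sgRNA, and with length at -0.26 and -0.35 for sgRNA and 0.11 and 0.25 for INT. These are descriptions across genes, which share libraries and are not independent. In the highest of 5 equal bins by GC (58.6 to 74.5%), 44.1% of features had both P4P6 libraries above CasVP and 9.05% both below; in the lowest bin (31.8 to 41.5%) the shares were 7.68% and 42.1%. The median GC was 59.3% for the features higher than in the other guides and 43.8% for the lower ones, against 48.8% over all, and the median length was 4046 and 1862 bases. PCSK1N and HES4, with GC of 74.5 and 74.0%, are examples at the high end, and PCMTD1, at 35.4%, of the low end.

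With these trends removed, the medians of the lists furthest from 0 came closer to it. They went from -0.20 to -0.10 for cytoplasmic ribosomal proteins, from -0.12 to -0.03 for mitochondrial ones and from -0.11 to -0.05 for complex I. For complexes II to V the median went from -0.15 to -0.05, and for the proteasome from -0.15 to -0.09. Large scaffold and motor genes went from 0.22 to 0.10 and matrix genes from 0.16 to 0.05. Against CasVP the medians of these lists kept their sign, while that of the Sm and LSm list went from -0.09 to 0.03. Some lists near 0 moved away from it and changed sign. SR and hnRNP proteins went from -0.02 to 0.06, NF-kappaB targets from 0.01 to -0.06 and sterol synthesis from -0.004 to 0.03. The p53 list stayed at 0.08. Against the other guides, the median of matrix genes changed sign, from 0.14 to -0.015. Those of large scaffold and motor genes (0.24 to 0.08) and of cytoplasmic ribosomal proteins (-0.24 to -0.13) kept theirs. The part of length and GC content in the differences of single genes was not tested further.

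**Figure D5:**
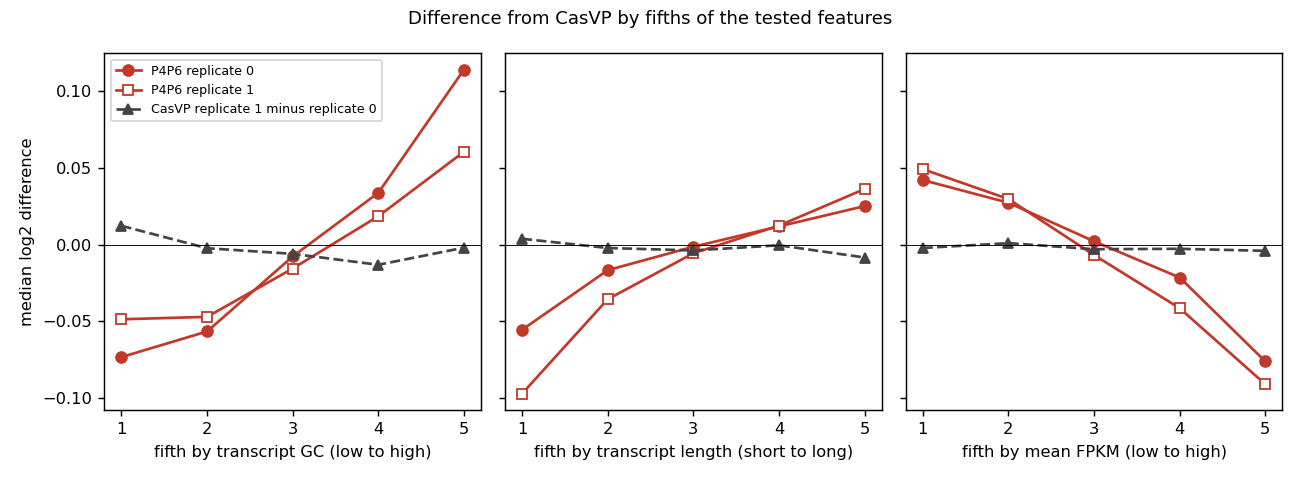
Median log2 difference from CasVP in 5 equal bins of the tested features by transcript GC, transcript length and mean FPKM, for P4P6 replicate 0 (filled circles), P4P6 replicate 1 (open squares) and CasVP replicate 1 minus replicate 0 (triangles). The P4P6 medians run from -0.07 and -0.05 in the lowest GC bin to 0.11 and 0.06 in the highest, while the CasVP replicates stay near 0.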

How the data were processed

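Poly(A) RNA was sequenced from 10 libraries, 2 in each of 5 groups taken from the labels. The authors deposited FPKM values for 20246 features in each library. TopHat2 2.0.13, Cuffdiff 2.2.1 and the build hg19 are named in the submitters' processing notes. Which step each tool performed, which gene models served and how libraries were scaled is not given in the sources used here, and read counts were not used. The 945 features without a gene name (2.31 to 2.47% of summed FPKM) were left out, and 2324 named ones were at 0 in every library. Of those tested, 93 shared a name with another feature and 509 named several genes.

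Values were tested as log2(FPKM + 1) with limma 3.58.1 in R 4.3.3, which understates the change of low features. All 10 libraries entered 1 fit with 5 group means, so the spread is shared. P-values were adjusted by the Benjamini-Hochberg method over 11574 features, with a threshold of 0.05. The procedure was tested on simulated data. Relative depth came from 10622 low values, of which 78.5% were whole fragments within 0.05. Transcript length and GC content are medians over the GENCODE transcripts of a gene that match a RefSeq messenger RNA. Where none matched, the longest GENCODE transcript was used.

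Genes named are the constructs; up to 15 each way with a mean of at least 5 FPKM, no overlap with CasVP and the largest difference; the 5 each way with the smallest p; up to 4 per gene list with the largest difference; and up to 8 each way among those passing against the other guides. The members and the 28 gene lists were chosen with earlier results of these data known, so list counts and medians are descriptions. Alternatives were another pseudocount, other filters, other scalings, library weights, the compared groups only, a replicate block, each library left out, and, chosen after seeing the data, removal of length and GC trends. Values of some named features are not reported here, though they stayed in the fit and in the counts of their lists.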

Additional observations from a re-analysis of the deposited data

Results flagged for a closer look

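Each of these features was singled out because its level with P4P6 differed from that with the 3 other guides at a limma adjusted p under 0.05, a test of the difference between guides. Values are log2 differences. The Gaussia reporter (-1.29) and the dCas9-VP64 transcript (-0.21) were lower with P4P6 than the mean of the other guides, although for dCas9-VP64 the TOP1 libraries overlapped P4P6. Among the endogenous genes that were also named for P4P6 against CasVP, higher ones were ZNF703 (0.47), FBRSL1 (0.45), TBX1 (0.44), AGRN (0.42), FASN (0.41), LENG8 (0.36), PKD1 (0.35), ATXN2L (0.32), TPM2 (0.28), DMPK (0.27) and SAFB (0.22). Lower ones were C15orf41 (-0.42), SLC39A11 (-0.41), APOC1 (-0.33), RPL13AP20 (-0.31), C11orf10 (-0.28), GLYCTK (-0.28), FOXP2 (-0.27), LIN37,PSENEN (-0.24), PIGH (-0.23) and CRADD (-0.22).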

How the results depend on the processing

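Against CasVP, 1 feature passed. Quantile normalization gave 7 (the reporter, SRRM2, ATXN2L, FASN, SAFB, LENG8 and CHCHD10), removal of length and GC trends 0 (1512 at an unadjusted p under 0.05 with limma; the reporter is not in that fit), and leaving out each library in turn 1 to 764, the highest without P4P6 replicate 0. Without CasVP replicate 0 there were 3: the reporter, AFF1 (0.90) and RPS20 (-0.79). Against the other guides, 2013 passed: 1273 with no filter, 905 with quantile normalization, 2 with library weights, 1295 from the compared groups only, 0 with trends removed and 265 to 2342 with each library left out. With a replicate block, 600 passed against CasVP (223 higher, 377 lower) and 2993 against the other guides. The replicate differences of the groups correlated from -0.04 to 0.42. Those of P4P6 correlated at 0.29 with CasVP, 0.42 with sgRNA, 0.22 with TOP1 and 0.13 with INT. As not all pairs of groups were above 0.1, the index was not taken to pair samples, and the count against CasVP depends on that choice. The reporter passed in every fit that held it, at 2.75 to 2.97 against CasVP and -1.39 to -1.15 against the other guides. The direction turned for GAPDH with quantile normalization (0.013) and SNRPG with trends removed (0.00137), and with a library left out within these ranges: ELOVL5 -0.040 to 2.59, EBP -0.21 to 0.028, P4HA1 -0.27 to 0.034, DNAJB4 -0.33 to 0.049, CHORDC1 -0.24 to 0.011, DHCR7 -0.0033 to 0.26, LSS -0.0071 to 0.24, BNIP3 -0.015 to 0.28 and MKI67 -0.016 to 0.41. For other genes and settings, 2014 values kept direction and side of the threshold, 124 no longer passed and 129 newly passed. The cause of these changes was not tested. Depth is known only as relative values, so no counting intervals are given.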
